A study of Sus scrofa with 12 samples.

Results

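The 48 genes described here code for the respiratory chain and the ATP synthase of mitochondria. They were chosen by symbol from the annotation table of the array, as the nuclear genes that start with NDUFA, NDUFB, NDUFC, NDUFS or NDUFV (complex I), SDHA to SDHD (complex II), UQCR (complex III), COX4 to COX8 (complex IV) or ATP5 (complex V). They made up 48 of the 10912 genes with a named probe set, and a gene with several probe sets was read from its brightest one on average. Of these, 42 are subunits, with 22 counted in complex I, 1 in complex II, 2 in complex III, 7 in complex IV and 10 in complex V. The other 6 carry the letters of the rule but are assembly factors (NDUFAF1, NDUFAF3, NDUFAF4, NDUFAF6, NDUFAF7 and SDHAF2), and they were counted apart. The pig gene reference lists 82 genes whose symbols fit the same letters, 47 of which had a probe set here, so the measured genes are a part of the system.

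Complexes I and II take electrons from NADH and from succinate, and complexes III and IV pass them on to oxygen while complexes I, III and IV move protons out of the mitochondrial matrix. Complex V, the ATP synthase, makes ATP from the protons that flow back. Heart muscle cells are packed with mitochondria and draw most of their ATP from this system, whereas fibroblasts and immune cells of a healing infarct hold far fewer mitochondria.

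RNA came from the infarct area in the anterior wall of the left ventricle of 12 female Large White pigs, with 4 pigs in each of 3 biogroups and 1 array per pig. In every pig a balloon was used to close the left anterior descending coronary artery and blood flow was then restored, so all biogroups carried a reperfused infarct and no uninjured heart was included. AMI/Placebo received the concentration medium alone into the pericardial sac, AMI/S-endMSCs the secretome (the concentrated secreted products) of human mesenchymal stromal cells named endometrial in the labels and menstrual blood-derived in the methods, and AMI/S-endMSCs* the secretome of the same kind of cells primed with IFNγ and TNFα. Therapy was given 3 days after the infarction, and tissue was taken on day 7 after therapy. Values are log2 signals after RMA, a processing that corrects background and is meant to bring arrays to 1 scale. A difference of 1 is a doubling of signal. The arrays still differed in median (2.69 to 2.99) and, as given below, in spread. Genes with an unadjusted p below 0.05 in limma were called, following the study's methods, and the p-values adjusted over all probe sets (Benjamini-Hochberg) are given beside the calls.

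The pieces held heart muscle: 19 of the 22 cardiomyocyte markers looked for had a probe set, all 19 of them above the median of all probe sets, and so were all 13 measured markers of fibroblasts and scar matrix. The array AMI/S-endMSCs replicate 1 stood apart, with the narrowest spread of values (interquartile range 1.66 against 1.80 to 2.51 in the others) and the lowest mean correlation with the other arrays (0.82 against 0.87 to 0.91). Replicate 4 of each biogroup came next in spread, at 1.80 in AMI/Placebo, 1.93 in AMI/S-endMSCs and 1.81 in AMI/S-endMSCs*. Bright genes in general leaned one way. Among the 2713 named genes at least as bright as the lower quartile of the members (a mean of 4.23), 110 were lower and 10 higher in AMI/S-endMSCs than in AMI/Placebo, and 328 were higher and 31 lower in AMI/S-endMSCs* than in AMI/S-endMSCs. Only a lower bound on brightness was set, so these 2713 brighter genes are not matched to the members. The shares called among all named genes and among the brighter genes are given beside the counts over all members, and the part of array quality in the members' values was not tested beyond the alternatives given.

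The members were well measured as a group. Their means over the 12 arrays ran from 2.66 to 9.09, and all but ATP5I lay above the median of all probe sets, 2.78. They also moved together from pig to pig. After each gene was centred on its own mean, the average of the 48 was -0.17, 0.58, -0.11 and -0.39 in the AMI/Placebo pigs, -0.77, -0.20, -0.05 and -0.26 in the AMI/S-endMSCs pigs, and 0.61, -0.22, 0.72 and 0.24 in the AMI/S-endMSCs* pigs (replicates 1 to 4 each time). The group averages were therefore -0.02 ± 0.42, -0.32 ± 0.31 and 0.34 ± 0.42 (SD, n = 4 each), and the 3 ranges overlapped: AMI/Placebo replicate 2 sat with the high AMI/S-endMSCs* arrays, and AMI/S-endMSCs* replicate 2 sat with the AMI/S-endMSCs arrays.

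**Figure D1:**
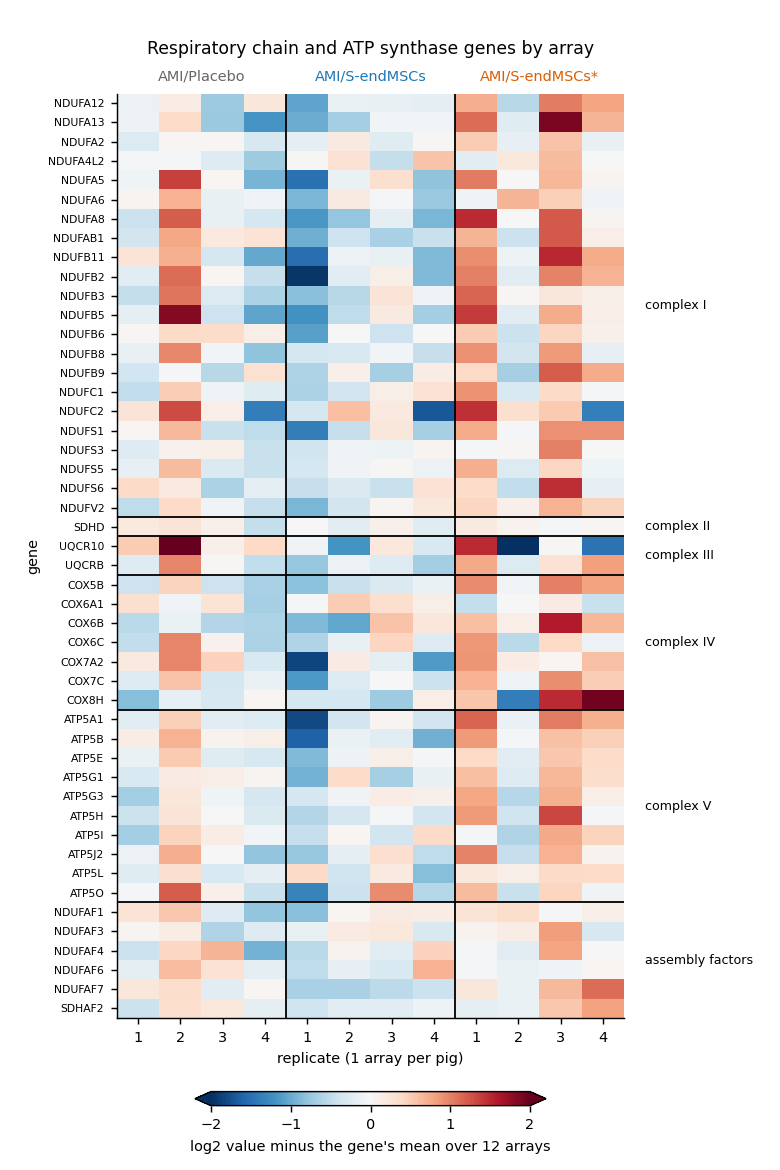
Heat map of the 48 members (rows, ordered by complex) on the 12 arrays (columns, 4 pigs per biogroup); colour is the log2 value minus the gene's mean over 12 arrays, and values beyond the ends of the scale take its end colours. AMI/S-endMSCs replicate 1 is low and AMI/Placebo replicate 2, AMI/S-endMSCs* replicate 1 and AMI/S-endMSCs* replicate 3 are high for most rows, while UQCR10, COX6A1 and NDUFA4L2 run differently.

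Across the 12 arrays the median correlation of a member with the mean of the others was 0.79, and 22 of 48 members exceeded 0.8. The arrays share the differences between biogroups and in array quality, so these values describe the libraries and are no test. With the group means removed the median was still 0.76. The 4 members under 0.4 were COX6A1 (r = -0.16), the form of subunit 6A known from tissues other than heart and skeletal muscle, NDUFA4L2 (0.17), a paralogue of NDUFA4 known as hypoxia-induced, the assembly factor NDUFAF6 (0.35) and UQCR10 (0.37), a small subunit of complex III. NDUFA4L2 was counted with complex I by its letters, although NDUFA4 itself is a subunit of complex IV. The named genes outside the list whose pattern was most like the members' mean over the 12 arrays were RNF113A (r = 0.97), LOC100524308 (0.97), TMEM65 (0.96), PLN (0.94) and TSR2 (0.94). PLN is also among the cardiomyocyte markers described further on.

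The clearest contrast was between the secretomes. AMI/S-endMSCs* exceeded AMI/S-endMSCs by a median of 0.62 over the 48 members, against a median of -0.02 over all named genes and 0.19 over the brighter genes. The difference was positive for 46 of 48 members, beside 5200 of 10912 named genes and 1866 of 2713 brighter genes. Of the members 18 were called higher and 0 lower. Over all named genes 7.29% were called in either direction and 4.81% as higher, and among the brighter genes 12.1% were called higher. The arrays of the 2 biogroups did not overlap for 5 members, NDUFA8, NDUFB11, COX5B, ATP5B and NDUFAF7, all higher, where 1.79% of all named genes were higher without overlap. After adjustment over all probe sets 0 members passed 0.05, and the smallest adjusted p was 0.58. Calls numbered 8 of 22 in complex I, 0 of 1 in complex II, 1 of 2 in complex III, 4 of 7 in complex IV, 4 of 10 in complex V and 1 of 6 among the assembly factors.

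Against AMI/Placebo the calls were few. In AMI/S-endMSCs 4 members were called lower (NDUFAB1, COX7A2, ATP5B and NDUFAF7) and 0 higher. The difference was negative for 40 of 48 members, beside 5377 of 10912 named genes and 2129 of 2713 brighter genes. The median was -0.22, beside 0.01 over all named genes and -0.24 over the brighter genes. Over all named genes 4.44% were called in either direction and 1.83% as lower, and 4.05% of the brighter genes were called lower. The arrays did not overlap for 4 members, all lower in AMI/S-endMSCs (ATP5B, NDUFAB1, NDUFAF7 and the uncalled NDUFB6), where 0.971% of all named genes were lower without overlap. The smallest adjusted p among the members was 0.86. The 4 calls became 1 without AMI/Placebo replicate 2, 2 without AMI/S-endMSCs replicate 1 and 8 without AMI/S-endMSCs replicate 3. After a further quantile normalization they were 2 higher (COX6A1 and NDUFA4L2) and 3 lower. The median was closer to 0 under several alternatives, at -0.08 with quantile normalization, -0.05 with the interquartile range of the array as a covariate and -0.01 without AMI/Placebo replicate 2.

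In AMI/S-endMSCs* 3 members were called higher than in AMI/Placebo (NDUFA13, COX5B and COX6B) and 0 lower. The difference was positive for 43 of 48 members, beside 5568 of 10912 named genes and 1266 of 2713 brighter genes. The members' median was 0.35. The median was 0.01 over all named genes and -0.03 over the brighter genes. Over all named genes 3.23% were called in either direction and 1.95% as higher, and 2.58% of the brighter genes were called higher. COX6B alone did not overlap, where 1.11% of all named genes were higher without overlap. The smallest adjusted p was 1. The 3 calls became 11 without AMI/Placebo replicate 2, 6 without AMI/S-endMSCs replicate 1 and 14 without AMI/S-endMSCs* replicate 2, and 11 with array weights. All 3 comparisons rest on a common set of 12 arrays and each pair of them shares a biogroup, so their values are set side by side and not as independent evidence.

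**Figure D2:**
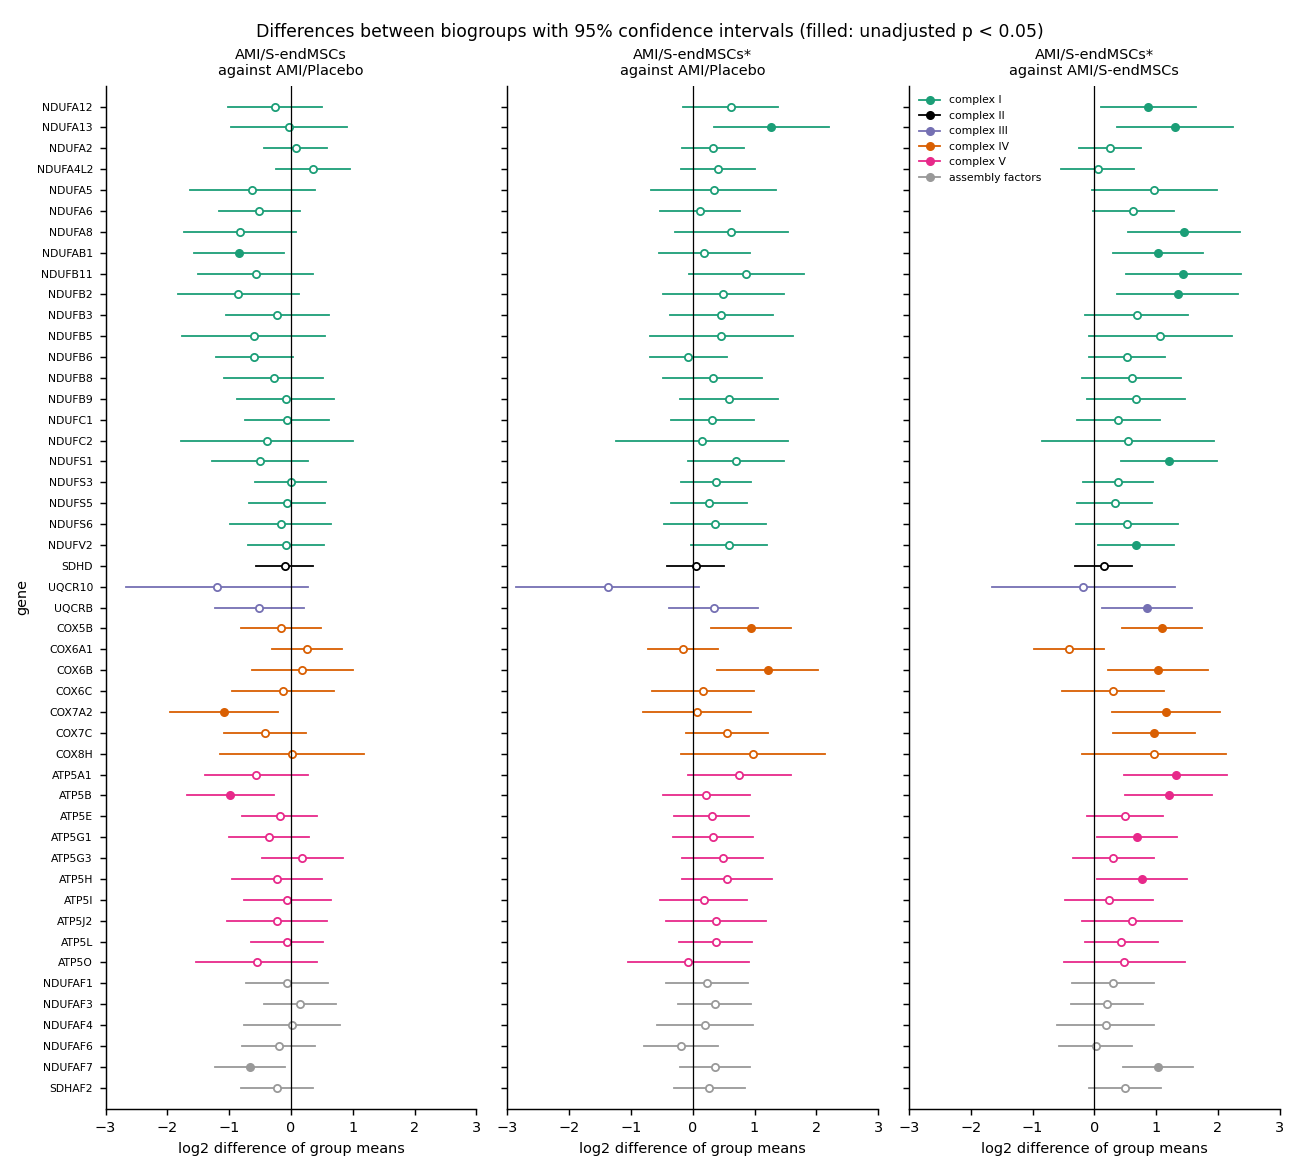
Log2 differences of the group means for the 48 members in the 3 comparisons (points) with 95% confidence intervals from limma (lines); filled points have an unadjusted p under 0.05. In the right panel 46 of 48 points lie to the right of 0 and 18 are filled, against 4 filled points to the left of 0 in the left panel and 3 to the right of 0 in the middle panel.

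Complex I, the NADH dehydrogenase that feeds the chain, gave 8 calls among 22 members between the secretomes. NDUFA8, an accessory subunit, read 4.22, 5.86, 4.50 and 4.30 in AMI/Placebo, 3.50, 3.88, 4.47 and 3.73 in AMI/S-endMSCs and 6.15, 4.66, 5.88 and 4.70 in AMI/S-endMSCs*. Every AMI/S-endMSCs* pig lay above every AMI/S-endMSCs pig, by a mean of 1.45 (SE 0.42, 2.74-fold, unadjusted p = 0.00401 and adjusted p = 0.58 by limma), while the AMI/Placebo pigs overlapped both. NDUFB11, an accessory subunit of the membrane arm, read 5.28, 5.72, 4.67 and 3.99, then 3.49, 4.89, 4.86 and 4.14, then 5.94, 4.91, 6.52 and 5.75 in the same order of biogroups. Its secretome groups lay apart by 1.44 (SE 0.43, unadjusted p = 0.00514 by limma), although the nearest arrays, 4.91 and 4.89, all but touched.

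NDUFS1, a core subunit that carries iron-sulfur clusters along which electrons pass, was 5.43, 6.05, 4.96 and 4.90 in AMI/Placebo, 4.02, 4.95, 5.63 and 4.74 in AMI/S-endMSCs and 6.14, 5.38, 6.31 and 6.32 in AMI/S-endMSCs*. It was higher in AMI/S-endMSCs* than in AMI/S-endMSCs by 1.21 (SE 0.36, unadjusted p = 0.00486 by limma), with 1 pig of each biogroup in the overlap. The other core subunit called was NDUFV2, part of the module that oxidises NADH, with 0.67 (SE 0.29, unadjusted p = 0.0351 by limma). Its call was lost without AMI/S-endMSCs replicate 1 or 2 or AMI/S-endMSCs* replicate 1, 3 or 4, with a highest p of 0.121. The call was also lost with a trend in eBayes, after a further quantile normalization and with the interquartile range as a covariate. The accessory subunits NDUFB2 (1.35, unadjusted p = 0.0103) and NDUFA12 (0.87, unadjusted p = 0.0279, named after its value was seen) also rose by limma. The call of NDUFA12 was lost without AMI/S-endMSCs replicate 1 or AMI/S-endMSCs* replicate 1, 3 or 4, with a highest p of 0.0940. A further quantile normalization ended it too.

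NDUFA13, an accessory subunit also known as GRIM-19, was the only complex I member called between AMI/S-endMSCs* and AMI/Placebo. It read 5.29, 5.76, 4.65 and 4.22 in AMI/Placebo, 4.40, 4.71, 5.34 and 5.34 in AMI/S-endMSCs and 6.51, 5.16, 7.28 and 6.07 in AMI/S-endMSCs*. The difference was 1.27 (SE 0.43, 2.42-fold, unadjusted p = 0.0110 by limma) against AMI/Placebo and 1.31 (SE 0.43, unadjusted p = 0.00953 by limma) against AMI/S-endMSCs. AMI/S-endMSCs* replicate 2 lay inside the range of both other biogroups, and the other 3 pigs of its biogroup lay above both ranges.

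NDUFAB1, the mitochondrial acyl carrier protein that doubles as a complex I subunit, was the complex I member called lower in AMI/S-endMSCs than in AMI/Placebo. Its values were 4.80, 5.93, 5.35 and 5.43 in AMI/Placebo, 4.19, 4.75, 4.51 and 4.71 in AMI/S-endMSCs and 5.85, 4.73, 6.39 and 5.30 in AMI/S-endMSCs*. The 4 AMI/S-endMSCs pigs lay below the 4 AMI/Placebo pigs by a mean of 0.84 (log2 difference -0.84, SE 0.34, unadjusted p = 0.0274 by limma). Leaving out AMI/Placebo replicate 2 or AMI/S-endMSCs replicate 1 ended the call (unadjusted p = 0.0904 and 0.0722 by limma). It was also lost with quantile normalization (unadjusted p = 0.0704), with array weights (0.0707) and with the interquartile range of the array as a covariate (0.0686 by limma). Against AMI/S-endMSCs, AMI/S-endMSCs* was higher by 1.03 (SE 0.34, unadjusted p = 0.00926 by limma). NDUFB6, an accessory subunit, also did not overlap between AMI/S-endMSCs and AMI/Placebo, with -0.59 (SE 0.29, unadjusted p = 0.0585 by limma), which missed the threshold.

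Several complex I genes had no called difference in the fit of the groups alone. NDUFA4L2 differed by 0.36 (95% confidence interval -0.24 to 0.96) and by 0.41 (-0.18 to 1.01) from AMI/Placebo in the unprimed and primed biogroups, and by 0.05 (-0.54 to 0.65) between them. NDUFC2, an accessory subunit, had the widest range of the complex, from 2.54 to 5.69, without a called difference. NDUFA6, another accessory subunit, differed between the secretomes by 0.63 (SE 0.30), with an unadjusted p of 0.0578 by limma. It was called with the replicate number as a block (unadjusted p = 0.0193) and with the fibroblast markers as a covariate (0.0278 by limma). The call also appeared without AMI/Placebo replicate 2, AMI/S-endMSCs replicate 2 or 3 or AMI/S-endMSCs* replicate 1 or 4. Against AMI/Placebo, AMI/S-endMSCs was called lower with the block (unadjusted p = 0.0474) and without AMI/S-endMSCs replicate 2 (0.0445 by limma). The probe set used for NDUFA6 was itself dim, with a mean of 2.99 against 2.78 for the median probe set. A second set of the gene, dimmer still (mean 1.78), did not follow the first (r = -0.20 over the 12 arrays). It differed by -0.32 between the secretomes. All 22 members of complex I had a positive difference between the secretomes and 20 of 22 a negative one between AMI/S-endMSCs and AMI/Placebo. Of the 2713 brighter genes 1866 were positive in the first of these comparisons and 2129 negative in the second.

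Complexes II and III were thinly covered. SDHD, a membrane anchor of succinate dehydrogenase and the only complex II subunit measured here, was the steadiest member, with a standard deviation of 0.21 over 12 arrays; its group means were 4.85 ± 0.33, 4.75 ± 0.16 and 4.90 ± 0.08 (SD, n = 4 each). Its difference between the secretomes was 0.15, with a 95% confidence interval of -0.31 to 0.61. A second SDHD probe set, likewise dim at a mean of 1.56, ran against it (r = -0.34) and differed by -0.35. UQCRB, which helps to bind ubiquinone in complex III, read 7.97, 9.20, 8.25 and 7.74 in AMI/Placebo, 7.47, 8.12, 7.97 and 7.54 in AMI/S-endMSCs and 9.0, 7.95, 8.51 and 9.05 in AMI/S-endMSCs*. It was higher in AMI/S-endMSCs* than in AMI/S-endMSCs by 0.85 (SE 0.34, unadjusted p = 0.0246 by limma), with AMI/S-endMSCs* replicate 2 below 2 of the AMI/S-endMSCs pigs. This call was lost without AMI/S-endMSCs replicate 1 or 4 or AMI/S-endMSCs* replicate 1 or 4, with a highest p of 0.0725.

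UQCR10 went its own way and was the most variable member, with a range of 4.55 over the arrays. It read 4.74, 6.68, 4.34 and 4.63 in AMI/Placebo, 4.17, 3.05, 4.44 and 3.93 in AMI/S-endMSCs and 5.72, 2.12, 4.26 and 2.76 in AMI/S-endMSCs*. The AMI/S-endMSCs* pigs held both the lowest value and the second highest of the whole set, so the differences of -1.20 (SE 0.69) and -1.38 (SE 0.69) from AMI/Placebo did not pass the test (unadjusted p = 0.103 and 0.0652 by limma). The outcome depended on single arrays. Without AMI/S-endMSCs* replicate 1 both were called (-1.20 with unadjusted p = 0.0487 and -2.05 with unadjusted p = 0.00454 by limma), and without AMI/Placebo replicate 3 the second was (-1.63, unadjusted p = 0.0488 by limma). With only both biogroups fitted the first was called too (unadjusted p = 0.0358 by limma). UQCR10 was 1 of the 2 members whose difference between the secretomes was negative (-0.18, 95% confidence interval -1.65 to 1.30).

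Complex IV, the cytochrome c oxidase that hands electrons to oxygen, gave 4 calls among 7 members between the secretomes and 2 between AMI/S-endMSCs* and AMI/Placebo. COX5B, a subunit on the matrix side, read 6.14, 7.00, 6.15 and 5.91 in AMI/Placebo, 5.75, 6.11, 6.28 and 6.43 in AMI/S-endMSCs and 7.51, 6.51, 7.58 and 7.36 in AMI/S-endMSCs*. The AMI/S-endMSCs* pigs all exceeded the AMI/S-endMSCs pigs, by 1.10 on average (SE 0.30, 2.14-fold, unadjusted p = 0.00268 by limma), and exceeded AMI/Placebo by 0.94 (SE 0.30, unadjusted p = 0.00768 by limma) with an overlap through AMI/Placebo replicate 2. COX6B, a subunit facing the intermembrane space, read 4.91, 5.31, 4.85 and 4.82, then 4.56, 4.40, 6.0 and 5.66, then 6.05, 5.57, 7.02 and 6.11. It was the only member whose AMI/S-endMSCs* pigs all lay above all AMI/Placebo pigs, with a difference of 1.21 (SE 0.38, 2.32-fold, unadjusted p = 0.00648 and adjusted p = 1 by limma), and it was split inside AMI/S-endMSCs, with 2 pigs below and 2 above the whole AMI/Placebo range. Its difference of 1.03 between the secretomes (SE 0.38, unadjusted p = 0.0170 by limma) lost its call without AMI/S-endMSCs replicate 1 or 2 or AMI/S-endMSCs* replicate 3, with a highest p of 0.0663.

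COX7A2, the form of subunit 7A found in most tissues, behaved differently against AMI/Placebo. It read 9.28, 10.07, 9.56 and 8.78 in AMI/Placebo, 7.26, 9.25, 8.89 and 7.96 in AMI/S-endMSCs and 9.96, 9.23, 9.13 and 9.68 in AMI/S-endMSCs*. It was lower in AMI/S-endMSCs than in AMI/Placebo (log2 difference -1.08, SE 0.41, unadjusted p = 0.0189 by limma), with replicates 1 and 4 the lowest. The call was lost without either of them or without AMI/Placebo replicate 2, with a highest p of 0.0714. It was also lost with the interquartile range of the array as a covariate. AMI/S-endMSCs* and AMI/Placebo differed by 0.08 (95% confidence interval -0.80 to 0.95). Between the secretomes the difference was 1.16 (SE 0.41, unadjusted p = 0.0131 by limma).

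COX7C, another small subunit, was higher in AMI/S-endMSCs* than in AMI/S-endMSCs by 0.97 (SE 0.31, unadjusted p = 0.00725 by limma), while AMI/Placebo averaged 8.49 ± 0.42, AMI/S-endMSCs 8.07 ± 0.49 and AMI/S-endMSCs* 9.04 ± 0.43 (SD, n = 4 each). COX8H, a heart form of subunit 8 by its name, was spread widely in AMI/S-endMSCs*, at 4.57, 2.63, 5.50 and 5.95 against 3.16 to 4.16 in the other 8 pigs. Its difference of 0.96 from AMI/S-endMSCs was not called (SE 0.54, unadjusted p = 0.0975 by limma). Without AMI/S-endMSCs* replicate 2 it was 1.64 (unadjusted p = 0.000381 by limma), and the difference from AMI/Placebo went from 0.97 (unadjusted p = 0.0947) to 1.65 (unadjusted p = 0.000363 by limma). It was also called with the interquartile range as a covariate (1.22, unadjusted p = 0.0445), and the difference from AMI/Placebo was called with array weights (1.09, unadjusted p = 0.0394 by limma). With the cardiomyocyte markers, described further on, as a covariate the difference between the secretomes was -0.03. COX6A1 was the other member with a negative difference between the secretomes (-0.42, SE 0.26, unadjusted p = 0.136 by limma), and its values ran from 5.65 to 6.81 with all 3 biogroups overlapping. After a further quantile normalization of the arrays this difference was -0.59 with an unadjusted p of 0.0145 by limma. The heart forms of subunits 6A and 7A (COX6A2 and COX7A1) were not analysed here, so heart and non-heart forms could not be compared within an array.

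Complex V showed its largest differences in the catalytic head, where ATP is made. ATP5B, the beta subunit, read 7.69, 8.24, 7.62 and 7.66 in AMI/Placebo, 5.93, 7.42, 7.33 and 6.58 in AMI/S-endMSCs and 8.40, 7.52, 8.14 and 8.03 in AMI/S-endMSCs*. All 4 AMI/S-endMSCs pigs lay below all other pigs. The difference was -0.99 against AMI/Placebo (SE 0.33, 0.505 times the AMI/Placebo signal, unadjusted p = 0.00952 and adjusted p = 0.86 by limma) and 1.21 in favour of AMI/S-endMSCs* (SE 0.33, 2.31-fold, unadjusted p = 0.00254 by limma), and both calls were kept without any 1 of the 12 arrays. It was the only 1 of the 4 members called lower than AMI/Placebo for which this was so. A second, dimmer probe set of ATP5B pointed the same way, with -1.75 (unadjusted p = 0.0311) and 1.62 (unadjusted p = 0.0440) in the same fit by limma. Of the other 5 members with a further probe set, NDUFA6 and SDHD differed in sign as given above. COX7C (1.43) and ATP5J2 (0.64) had further sets that were positive between the secretomes, and the second set of COX7A2 held values identical to the first.

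ATP5A1, the alpha subunit, read 8.58, 9.27, 8.57 and 8.52 in AMI/Placebo, 6.99, 8.43, 8.85 and 8.42 in AMI/S-endMSCs and 9.97, 8.67, 9.82 and 9.51 in AMI/S-endMSCs*. Between the secretomes the difference was 1.32 (SE 0.39, 2.49-fold, unadjusted p = 0.00450 by limma), with AMI/S-endMSCs* replicate 2 below the highest AMI/S-endMSCs pig. Against AMI/Placebo neither -0.56 (SE 0.39, unadjusted p = 0.171) nor 0.76 (SE 0.39, unadjusted p = 0.0731) passed by limma. The other calls in complex V, both named after their values were seen, were ATP5G1, which codes for the c subunit of the rotating ring (0.69, SE 0.30, unadjusted p = 0.0393), and ATP5H, a subunit of the peripheral stalk (0.78, SE 0.34, unadjusted p = 0.0387 by limma). The call of ATP5G1 was lost without AMI/S-endMSCs replicate 1 or 3 or AMI/S-endMSCs* replicate 1, 3 or 4 (highest p 0.128), and that of ATP5H without AMI/S-endMSCs replicate 1, 2 or 4 or AMI/S-endMSCs* replicate 1 or 3 (highest p 0.151). Both were also lost after a further quantile normalization, with only both biogroups fitted and with the interquartile range as a covariate. ATP5G1 lost its call with array weights and with the replicate block too. All 10 members of the complex had a positive difference between the secretomes, from 0.23 upwards, beside 1866 of 2713 brighter genes.

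Among the assembly factors, which help to build the complexes without staying in them, NDUFAF7 stood out. This methyltransferase of complex I assembly read 4.25, 4.37, 3.82 and 4.07 in AMI/Placebo, 3.37, 3.38, 3.51 and 3.60 in AMI/S-endMSCs and 4.25, 3.89, 4.68 and 5.15 in AMI/S-endMSCs*. AMI/S-endMSCs was tight, at 3.46 ± 0.11 (SD, n = 4), and lay below every pig of both other biogroups. The difference was -0.66 from AMI/Placebo (SE 0.26, unadjusted p = 0.0253 by limma), a call lost without AMI/Placebo replicate 1, AMI/Placebo replicate 2 or AMI/S-endMSCs replicate 2, with a highest p of 0.0676. Between the secretomes it was 1.03 (SE 0.26, unadjusted p = 0.00168 and adjusted p = 0.58 by limma), the smallest p of any member and kept without any 1 of the 12 arrays. The remaining 5 assembly factors gave 0 calls in the 3 comparisons.

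**Figure D3:**
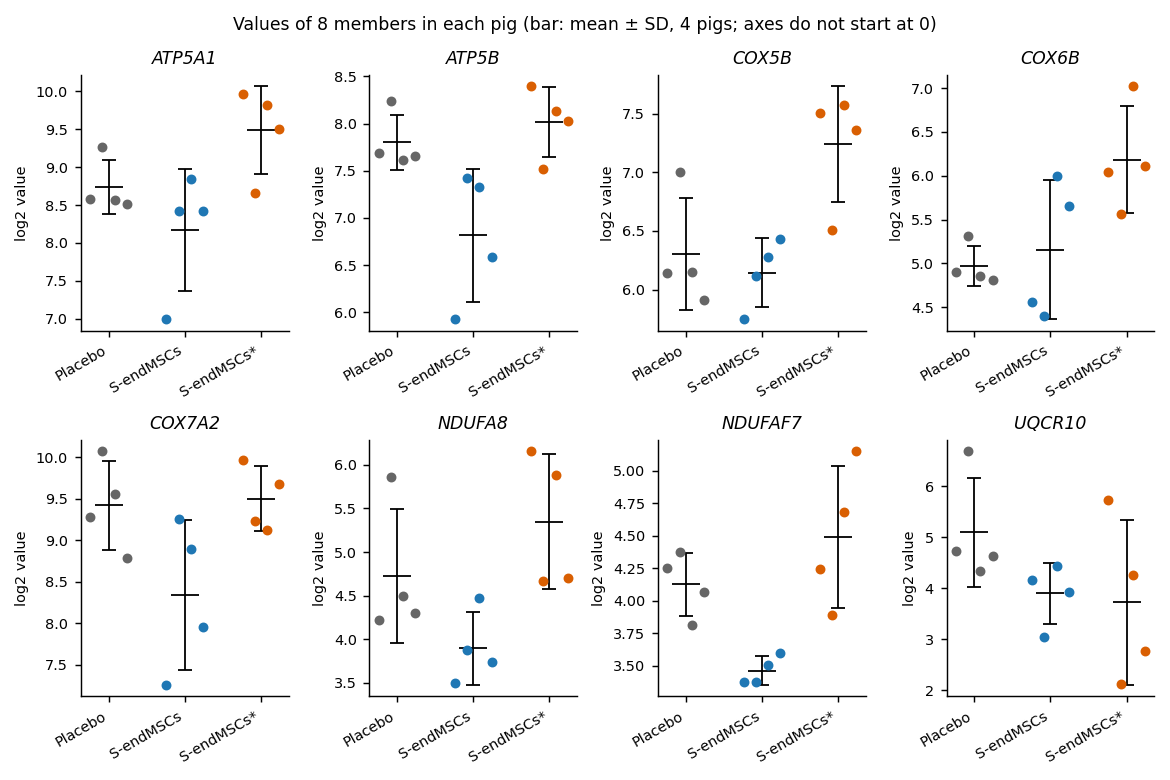
Log2 values of 8 members in each pig (points, grouped by biogroup, replicates 1 to 4 from left to right) with the mean and SD of the 4 pigs (bars); the axes differ and do not start at 0. The AMI/S-endMSCs pigs lie below both other biogroups for ATP5B and NDUFAF7, the AMI/S-endMSCs* pigs lie above AMI/Placebo for COX6B, and UQCR10 runs from 2.12 to 6.68.

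Heart muscle transcripts tended to move with the members. The average of the 19 cardiomyocyte markers, centred in the same way, was -0.32, 0.39, -1.33 and 0.74 in AMI/Placebo, -1.81, -0.45, -0.94 and 0.16 in AMI/S-endMSCs and 1.82, -1.17, 1.68 and 1.25 in AMI/S-endMSCs*. Arrays low or high for the markers were often low or high for the members, among them AMI/S-endMSCs replicate 1 and AMI/S-endMSCs* replicates 1 and 3, whereas replicate 4 of AMI/Placebo and of AMI/S-endMSCs was above 0 for the markers and below it for the members. Between the secretomes 14 of 19 markers were called higher (median difference 1.64), beside 4.81% of all named genes and 12.1% of the brighter ones. Against AMI/Placebo 3 of 19 were called higher in AMI/S-endMSCs* (median 1.05), beside 1.95% of all named genes, and 0 in AMI/S-endMSCs (median -0.51). Over the 12 arrays the median correlation of a member with the marker mean was 0.63, beside -0.04 for all named genes. The members' mean had r = 0.75 with the marker mean (0.60 by rank). With the array's interquartile range it had r = 0.58 (0.62 by rank). Without the 2 arrays farthest from the middle on the markers, the correlation with the marker mean was 0.54 (0.32 by rank). Which of the 2 quantities the members followed was not tested. In a piece of tissue, fewer cells of a type and less RNA per cell cannot be told apart.

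**Figure D4:**
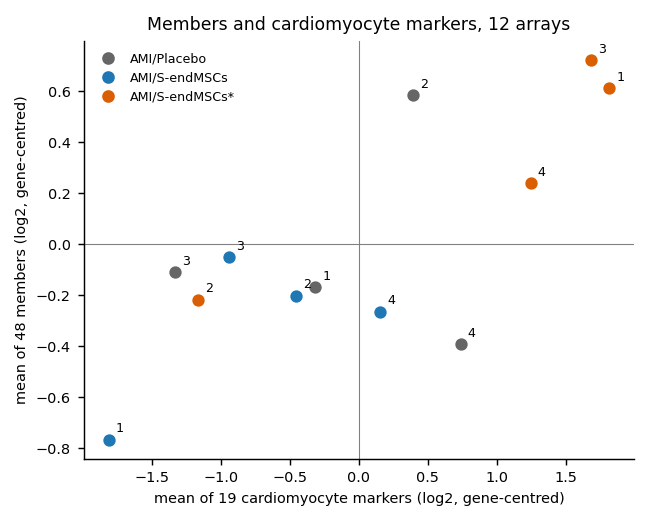
Mean of the 48 members (vertical axis) against the mean of the 19 cardiomyocyte markers (horizontal axis) on each of the 12 arrays, both as log2 values centred per gene; colours give the biogroup and numbers the replicate. AMI/S-endMSCs replicate 1 lies at -1.81 and -0.77, and AMI/S-endMSCs* replicates 1, 3 and 4 lie above 0 on both axes, with replicate 2 at -1.17 and -0.22.

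With the marker mean as a covariate in the fit, most calls between the secretomes were lost. The count went from 18 to 1, NDUFAF7 (0.71, SE 0.30, unadjusted p = 0.0365 by limma), where 2.88% of all named genes were called. The median difference went from 0.62 to 0.28 and 37 of 48 differences were positive. ATP5B (0.79, unadjusted p = 0.0529), COX5B (0.63, unadjusted p = 0.0676) and NDUFA8 (0.96, unadjusted p = 0.0686) came next by limma in that fit, and NDUFA12 went from 0.87 to 0.08. The covariate itself differs between the biogroups, so its part and that of the treatment cannot be separated by this fit.

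Against AMI/Placebo the medians also moved towards 0 with the covariate. In AMI/S-endMSCs the median went from -0.22 to -0.09 and the negative differences from 40 to 29 of 48, and in AMI/S-endMSCs* the median went from 0.35 to 0.14 and the positive differences from 43 to 37 of 48. In AMI/S-endMSCs ATP5B (-0.83, unadjusted p = 0.0194), COX7A2 (-1.0, unadjusted p = 0.0355) and NDUFAB1 (-0.62, unadjusted p = 0.0494) stayed called by limma with the covariate, where 4.45% of all named genes were called, and NDUFAF7 did not (unadjusted p = 0.0539). In AMI/S-endMSCs* COX6B (0.95, unadjusted p = 0.0296) and COX5B (0.65, unadjusted p = 0.0375) stayed called by limma, NDUFA13 did not (0.87, unadjusted p = 0.0520), and UQCR10 was called lower (-1.97, SE 0.66, unadjusted p = 0.0107), where 1.82% of all named genes were called. The macrophage and monocyte markers ran the other way in this comparison, with 4 of 12 called lower in AMI/S-endMSCs* than in AMI/Placebo, beside 1.28% of all named genes. Their part in the members' values was not tested.

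**Figure D5:**
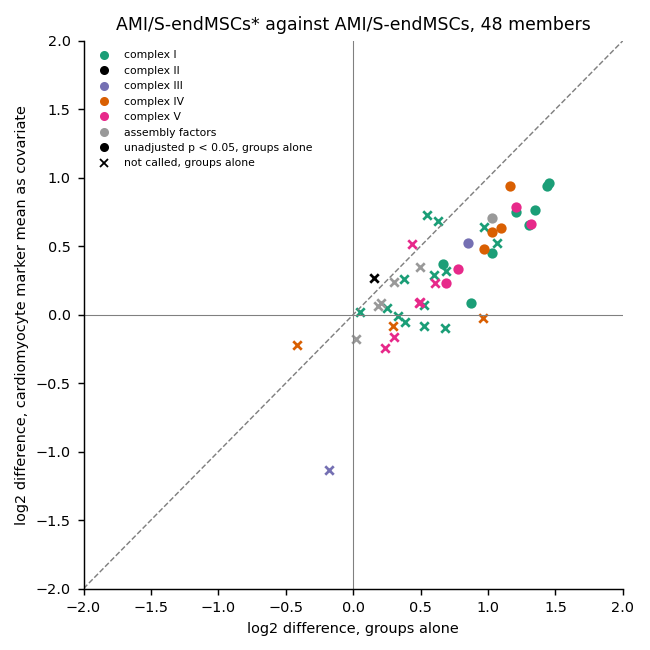
Log2 difference between AMI/S-endMSCs* and AMI/S-endMSCs for each of the 48 members in the fit of the groups alone (horizontal axis) and with the cardiomyocyte marker mean as a covariate (vertical axis); circles are the 18 members called without the covariate, and the dashed line marks equal values. Most points lie below the line, the median going from 0.62 to 0.28.

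Genes that feed or assist the chain were taken from lists set by function. Of the electron carriers 4 of 5 were measured, and 3 were called higher in AMI/S-endMSCs* than in AMI/S-endMSCs: CYCS, cytochrome c itself (1.21, SE 0.42, unadjusted p = 0.0131), ETFA, a chain of the electron transfer flavoprotein (1.18, SE 0.36, unadjusted p = 0.00517), and ETFDH, which hands electrons from fatty acid oxidation to ubiquinone (1.93, SE 0.45, unadjusted p = 0.000846 by limma). ETFDH was also higher than in AMI/Placebo, by 1.33 (SE 0.45, unadjusted p = 0.0112 by limma). Of the tricarboxylic acid cycle enzymes, which supply NADH and succinate, 9 of 14 were measured; 6 were called higher between the secretomes and 0 lower, with a median of 0.69. The share called higher in this comparison was 4.81% of all named genes and 12.1% of the brighter ones, a background for these enzymes and for the electron carriers. The enzymes called included citrate synthase CS (1.30, SE 0.41, unadjusted p = 0.00712 by limma) and the isocitrate dehydrogenases IDH2 and IDH3B, which were also called higher than in AMI/Placebo (0.95 with unadjusted p = 0.00735 and 0.77 with unadjusted p = 0.0140 by limma).

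Of the regulators of mitochondrial genes 9 of 15 were measured, 6 of them above the median of all probe sets. None of the 9, TFAM, NRF1, PPARA, PPARGC1B, ESRRA and HIF1A among them, was called in any of the 3 comparisons, and their median difference between the secretomes was 0.16. With 7.29%, 4.44% and 3.23% of all named genes called, 0 calls among 9 genes does not set them apart. TFAM, which packs mitochondrial DNA and helps to transcribe it, had -0.45 between AMI/S-endMSCs and AMI/Placebo and 0.46 between the secretomes, neither past the threshold. Of the further assembly factors 10 of 38 were measured, and 2, both needed for complex IV, were called higher in AMI/S-endMSCs* than in AMI/S-endMSCs. They were PET100 (0.85, SE 0.24, unadjusted p = 0.00338) and TACO1 (0.99, SE 0.25, unadjusted p = 0.00131 by limma). The other 8 were not called, and 3 of the 10 differences were negative. TACO1 was also the 1 factor called lower in AMI/S-endMSCs than in AMI/Placebo (-0.71, SE 0.25, unadjusted p = 0.0125 by limma). Of all named genes 4.81% were called higher between the secretomes, and 1.83% lower in AMI/S-endMSCs than in AMI/Placebo. Among the brighter genes these shares were 12.1% and 4.05%.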

How the data were processed

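RNA of 12 infarct samples was hybridised by the authors to Affymetrix Porcine Gene 1.1 ST arrays, 1 per pig. The deposited values are on the log2 scale, made by the authors with RMA in the package oligo (versions not given in the sources used here), which corrects background, normalizes arrays by quantiles and summarises probes. The table held 27558 probe sets; scan files were not used here. Of these, 11982 carried 1 gene symbol in the platform annotation, 373 several and 15203 none listed; 10922 matched the pig gene reference by Entrez identifier, with 0 symbols changed, and 47 of 48 members matched. COX7A2 has 2 probe sets with the same values, and a probe set listed for both COMMD9 and SDHAF2 was left out.

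The 3 biogroups were compared in limma 3.58.1 (R 4.3.3), with 1 mean per biogroup fitted over all 12 arrays and all probe sets; figures were drawn with matplotlib. The fit was tested on simulated data. No count or depth exists for arrays, so the 4 pigs per biogroup set the precision. Named were isoforms, core subunits, the brightest and most variable member of each complex, the 10 smallest p per comparison and calls against the members' direction. The members and lists were chosen with earlier results of these data known. Alternatives were quantile normalization, centring of arrays on their medians, a trend in eBayes, leaving out dim probe sets, fits of only the biogroups compared, array weights, a replicate block, the mean over probe sets, the cardiomyocyte marker mean as a covariate and leaving out each array; the array's interquartile range and the fibroblast marker mean as covariates were added after seeing the data. The labels do not say that replicate numbers pair the pigs, and outside the replicate block the fits did not pair them. The planned tests of isoform pairs and promoter motifs were not run, because no pair had both forms among the named probe sets and no sequences were used.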

Additional observations from a re-analysis of the deposited data

Results flagged for a closer look

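Across 87 groups of 4 arrays (the named members and means over sets of members, among them the complexes, in each biogroup), 5 had 1 array far from its fellows by Dixon's criterion, where chance flags about 5%. All 5 concern AMI/Placebo replicate 2, on the high side. ATP5A1, the alpha subunit of the ATP synthase, was 9.27 there, with the next pig at 8.58. ATP5B, the beta subunit, was 8.24 with the next at 7.69. NDUFA8 of complex I was 5.86 with the next at 4.50. UQCR10 of complex III was 6.68 with the next at 4.74, and the mean of both complex III members was 1.70 above their overall level with the next at 0.12. That mean includes UQCR10, so these flags are not separate.

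This pig bears on both comparisons with AMI/Placebo. Without it, members called between AMI/S-endMSCs and AMI/Placebo went from 4 to 1, and members called between AMI/S-endMSCs* and AMI/Placebo from 3 to 11. The array had the widest interquartile range, 2.51, and its cardiomyocyte marker mean was 0.39.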

How the results depend on the processing

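The median differences of the members kept their sign under every alternative run but not their size. For AMI/S-endMSCs against AMI/Placebo the median went from -0.22 to -0.08 with quantile normalization, -0.05 with the interquartile range covariate, -0.09 with the cardiomyocyte covariate and -0.01 without AMI/Placebo replicate 2. With the cardiomyocyte covariate the other medians went from 0.35 to 0.14 and from 0.62 to 0.28. Between AMI/S-endMSCs* and AMI/Placebo the 3 calls became 8 with quantile normalization, 5 with only both biogroups fitted, 11 with array weights and, with covariates added after seeing the data, 7 with the interquartile range and 6 with the fibroblast markers. Between the secretomes the 18 calls became 1 with the cardiomyocyte covariate. The split of calls there was 15 higher and 1 lower with quantile normalization. With the interquartile range covariate it was 16 higher and 1 lower. COX6A1 was the lower call both times. The causes were not tested.

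Leaving out 1 array at a time gave 1 to 8 calls and medians of -0.31 to -0.01 for AMI/S-endMSCs against AMI/Placebo, 3 to 14 calls and 0.25 to 0.51 for AMI/S-endMSCs* against AMI/Placebo, and 13 to 26 calls and 0.46 to 0.80 between the secretomes. The first count was 1 without AMI/Placebo replicate 2, 2 without AMI/S-endMSCs replicate 1 and 8 without AMI/S-endMSCs replicate 3. The second was 11 without AMI/Placebo replicate 2, 6 without AMI/S-endMSCs replicate 1 and 14 without AMI/S-endMSCs* replicate 2.

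Deviations from the group means of same-numbered pigs had 12 pair correlations from -0.18 to 0.40, 4 of them over 0.1. For the pigs numbered 4 they were 0.15, 0.40 and 0.06. Whether pigs with a common number share a deviation was not tested. With the replicate block the calls were 5, 3 and 19, in the order of comparisons above. Quantile normalization turned the split of calls between AMI/S-endMSCs and AMI/Placebo to 2 higher and 3 lower.

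Over the 23 named members 1479 values kept their side of the threshold, 65 passed it and 43 lost it. Calls that turned to the opposite direction numbered 0. Some uncalled differences did change sign. With the cardiomyocyte covariate ATP5B went from 0.22 to -0.04 and COX7A2 from 0.08 to -0.06 between AMI/S-endMSCs* and AMI/Placebo. With 4 pigs per biogroup, 0 members passed after adjustment.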

Other observations

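NDUFC2, an accessory subunit of complex I, was lowest in the pig numbered 4 of each biogroup: 2.85 in AMI/Placebo, 2.54 in AMI/S-endMSCs and 2.86 in AMI/S-endMSCs*, against 3.89 to 5.69 in the other 9 pigs. The pattern was picked out after the values were seen and was not tested.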
